A study of Macaca mulatta with 6 samples.

Results

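Wnt ligands are secreted glycoproteins that carry signals between neighbouring cells, and the TCF factors are the DNA-binding proteins at the nuclear end of the canonical branch of the pathway. Ligands reach the cell surface with the help of the carrier protein WLS and bind frizzled receptors. In the canonical branch the signal stops the breakdown of beta-catenin, which is encoded by CTNNB1 and partners TCF and LEF factors at target genes. In the testis, Wnt signals pass between somatic cells and spermatogonia and have been tied to the balance of self-renewal and differentiation of spermatogonial stem cells (SSCs), the cells that maintain sperm production. The genes described here were chosen by name as rows of the deposited count table: WNT2, WNT2B, WNT5A, WNT11, WLS, CTNNB1, TCF7, TCF7L1, TCF7L2 and AXIN2. Of these 10 genes, 6 were analysed out of 17795 genes in the table, namely WNT2B, WLS, CTNNB1, TCF7, TCF7L1 and TCF7L2. The other 4, WNT2, WNT5A, WNT11 and AXIN2, were not analysed here. The rule that picked them names genes and uses no measured value, but it was written with earlier results of these data known.

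Bulk RNA sequencing was compared between rhesus monkey (Macaca mulatta) SSC cultures supplemented with platelet-derived growth factor (PDGF, 3 libraries) and PDGF-free controls (labelled PDGFNO, 3 libraries). The labels give testis as the tissue for all 6 libraries, while the study's methods describe SSCs in gel droplets under a medium that also held GDNF, EGF, bFGF, LIF, serum and recombinant Wnt3a, a canonical ligand. The makeup of the PDGF-free medium apart from PDGF, and the donor and age behind each library, are not given in the sources used here. In both groups replicate 1 belongs to batch 1 and replicates 2 and 3 to batch 2, and nothing states that replicates are separate cultures, so p-values measure the spread between these libraries, which may be technical.

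Library totals ranged from 10593805 to 14102697 counts, and replicate 1 of each group lay apart from replicates 2 and 3 (chi-square per degree of freedom of 47.2 to 60.2, against 3.43 to 3.66 between replicates 2 and 3). Levels are given as CPM, the counts of a gene scaled to a common library size after TMM normalization. The cell identity given by the study was checked against markers. Of 10 markers of undifferentiated spermatogonia analysed, 4 passed the count filter: UCHL1 stood at 173 to 285 CPM, ID4 at 127 to 177, ETV5 at 71.1 to 95.9 and FGFR3 at 7.16 to 81.8 over the 6 libraries. Of the other 6, NANOS2 was at 0 in every library and GFRA1 stayed between 0 and 0.739 CPM. The general germ cell gene DDX4 lay between 0.150 and 3.64 CPM, while TNP1, a gene of spermatid chromatin, reached 346 CPM without PDGF. The 8 fibroblast and stromal markers, collagen genes among them, summed to 14120 to 19438 CPM with PDGF and to 16982 to 19170 CPM without. Germ cell markers were thus mixed. Besides the 4 named above and TNP1, the spermatid gene TNP2 was well expressed (22.3 to 333 CPM). DAZL, MAEL, TDRD1, SALL4, ZBTB16, PIWIL4 and ERBB4 stayed at 3.83 CPM or below in every library. The spermatid genes ACRV1 and SPACA1 stayed at 1.47 CPM or below. The sum of the stromal markers stood far above that of each germ cell list. Single genes did not all do so: THY1 (24.8 to 46.7 CPM) lay below UCHL1 and ID4. The values below are those of the whole culture, and the share of germ cells in it was not measured. In such bulk libraries fewer cells of a type and less RNA per cell cannot be told apart.

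As described below, TCF7 was higher with PDGF, TCF7L2 was lower by a call close to the threshold, and TCF7L1 did not pass the test. The sequences just before their starts are shown to let their control regions be compared. The 250 bases upstream of each RefSeq gene start were read from the Mmul_10 genome, a build named in the submitters' notes beside Mmul_8.0.1 with no role given, and are written 5′ to 3′ on the strand of the gene. TCF7 lies on chromosome 6 (chr6:131551558-131584973, plus strand), TCF7L1 on chromosome 13 (chr13:23173956-23353606, minus strand) and TCF7L2 on chromosome 9 (chr9:113474926-113693230, plus strand). Their windows were chr6:131551308-131551557, chr13:23353607-23353856 and chr9:113474676-113474925. Capitals mark a match to the letters that TCF and LEF factors prefer, searched on both strands as CTTTG followed by any pair made of A or T, so that no match can overlap another on its strand.
TCF7: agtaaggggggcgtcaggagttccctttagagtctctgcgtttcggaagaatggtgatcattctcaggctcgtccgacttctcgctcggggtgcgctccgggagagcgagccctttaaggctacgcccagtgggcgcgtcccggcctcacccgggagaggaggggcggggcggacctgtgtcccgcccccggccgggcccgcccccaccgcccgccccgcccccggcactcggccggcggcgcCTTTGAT
TCF7L1: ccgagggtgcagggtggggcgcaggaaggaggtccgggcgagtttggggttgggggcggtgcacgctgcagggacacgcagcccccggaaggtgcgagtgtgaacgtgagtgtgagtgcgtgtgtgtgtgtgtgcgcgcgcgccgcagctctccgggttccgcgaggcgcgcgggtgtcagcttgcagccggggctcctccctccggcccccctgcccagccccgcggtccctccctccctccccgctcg
TCF7L2: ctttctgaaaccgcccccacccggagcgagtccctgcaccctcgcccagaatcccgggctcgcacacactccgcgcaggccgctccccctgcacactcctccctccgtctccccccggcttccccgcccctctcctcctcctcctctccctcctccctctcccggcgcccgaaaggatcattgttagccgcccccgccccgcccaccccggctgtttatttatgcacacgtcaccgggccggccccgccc
TCF7 held 1 match, CTTTGAT, which ended at the last base before the gene start. TCF7L1 and TCF7L2 held 0 matches, as did WNT2B, WLS, CTNNB1 and LEF1 in their own windows. Such a match was present in 11.3% of the windows of 20787 protein-coding genes, and in 9.44% of those of 11136 genes tested here. These matches describe letters in these windows and were not tested as binding sites. The 3 TCF windows were rich in G and C, with 71.2%, 74.0% and 71.2% for TCF7, TCF7L1 and TCF7L2. The LEF1 window was unlike them, with 32% G and C.

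PDGF supplementation was accompanied by higher TCF7 and WLS and lower TCF7L2, while CTNNB1 and TCF7L1 did not pass the test and WNT2B was too low to be tested. Across all genes, edgeR's quasi-likelihood test with Benjamini-Hochberg adjustment and a threshold of 0.05 called 18.3% of 11539 tested genes, 7.61% higher and 10.7% lower with PDGF. Of the 5 tested genes described here, 3 were called, 2 higher and 1 lower. A fit with replicate numbers as block called all 5, 3 higher and 2 lower, but also 60.1% of all tested genes (31.1% higher and 29% lower), so that its count sets these genes little apart. Of the chosen genes, edgeR called 5 beside 60.6% of all genes with batch as a term. It called 5 beside 59.1% when replicates 2 and 3 were summed and batch was a term. When these replicates were summed without a batch term, edgeR called 0 beside 5.78%. There 1 had an unadjusted edgeR p under 0.05, beside 2380 of 11992 genes. With no count filter edgeR called 1 beside 14.5%. DESeq2 called 3 of them beside 20.6% of all genes, and limma-voom 2 beside 18%. The median log2 fold change of all tested genes was 0.02.

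**Figure D1:**
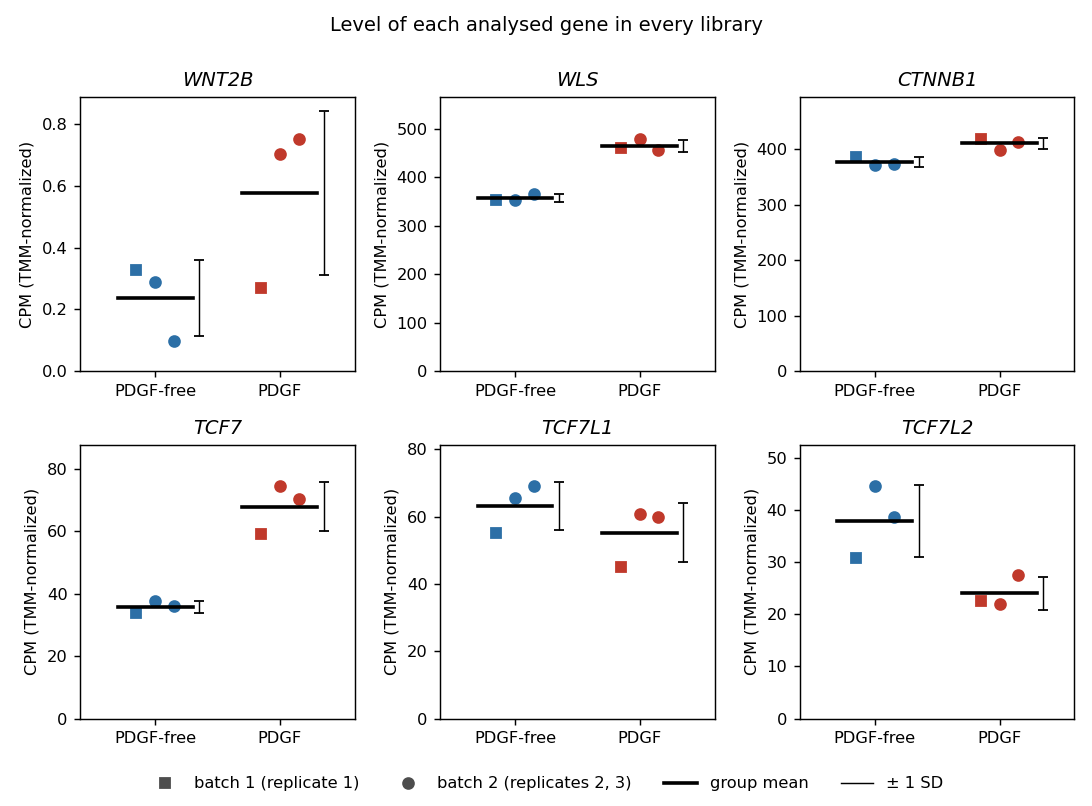
Level of each analysed gene in every library, in TMM-normalized CPM (vertical axis, starting at 0), for PDGF-free cultures (blue) and cultures with PDGF (red). Squares are batch 1, circles batch 2, the thick bar is the group mean and the thin bar ± 1 SD over 3 libraries. TCF7, WLS and CTNNB1 do not overlap between the groups and are higher with PDGF, as are 18.2% of tested genes. TCF7L2 does not overlap and is lower, as are 19.3% of tested genes, and WNT2B and TCF7L1 overlap.

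TCF7, which encodes the factor TCF-1 and is itself a target of canonical Wnt signaling in many tissues, stood at 59.1, 74.4 and 70.5 CPM in PDGF replicates 1, 2 and 3 and at 33.8, 37.6 and 36.0 CPM in PDGF-free replicates 1, 2 and 3. Every library with PDGF lay above every library without it, as for 18.2% of tested genes. The mean was 68.0 ± 7.98 against 35.8 ± 1.91 CPM (SD, n = 3 each), 1.90-fold higher with PDGF (log2 fold change 0.92, SE 0.15, edgeR adjusted p = 0.00494). The log2 difference was 0.80 within batch 1 and 0.98 within batch 2. Leaving out each library in turn kept the TCF7 call, with adjusted p in edgeR between 0.0035 and 0.0295. It lost the call when replicates 2 and 3 of each group were summed into 1 library (log2 fold change 0.91, edgeR adjusted p = 0.101).

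TCF7L2, a TCF factor that can activate or repress targets depending on its partners, moved the other way. Its levels were 22.5, 21.9 and 27.6 CPM in PDGF replicates 1, 2 and 3 and 30.7, 44.5 and 38.6 CPM in the PDGF-free replicates. The highest library with PDGF lay just below the lowest library without it, the former in batch 2 and the latter in batch 1. Of all tested genes, 19.3% did not overlap in this direction. The mean was 24.0 ± 3.11 against 38.0 ± 6.94 CPM (SD, n = 3 each), 1.58-fold lower with PDGF (log2 fold change -0.66, SE 0.19, edgeR adjusted p = 0.0478). It was lower in batch 1 (log2 difference -0.45) and in batch 2 (-0.75). The call was close to the threshold: it was kept in 1 of the 6 fits that leave out a library, the one without PDGF-free replicate 1 (edgeR adjusted p = 0.0153), and lost in the other 5 (up to 0.177 without PDGF-free replicate 2).

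TCF7L1, which encodes a factor that mostly represses its targets, was read at 45.1, 60.8 and 60.0 CPM with PDGF and at 55.3, 65.6 and 69.0 CPM without. The groups overlapped, and the lowest value in each group was that of batch 1. Its log2 fold change was -0.20 (SE 0.17, edgeR adjusted p = 0.467), or -0.20 with an edgeR adjusted p = 0.0212 with the replicate block. The sign turned to 0.07 (edgeR adjusted p = 0.427) when the block was combined with a correction for GC content and length. LEF1, the remaining factor of the family and not among the chosen genes, stood between 27.8 and 32.6 CPM with PDGF and between 31.3 and 42.5 CPM without. Its groups overlapped and its log2 fold change was -0.33 (SE 0.17, edgeR adjusted p = 0.216, or 0.00633 with the block).

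Divided by exon length, the 4 factors allowed their levels to be compared with each other. Without PDGF the order was TCF7L1 at 21.0 ± 2.37, TCF7 at 10.1 ± 0.535, TCF7L2 at 8.12 ± 1.48 and LEF1 at 5.42 ± 0.821 CPM per kilobase (SD, n = 3 each). In this order TCF7 and TCF7L2 overlapped between libraries (9.50 to 10.6 and 6.57 to 9.53 CPM per kilobase), and the others did not overlap with their neighbours. With PDGF, TCF7 at 19.1 ± 2.24 and TCF7L1 at 18.3 ± 2.92 CPM per kilobase stood level at the top, with overlapping libraries, and TCF7L2 at 5.13 ± 0.664 and LEF1 at 4.30 ± 0.391 CPM per kilobase overlapped below them. The sum over the 4 factors was 41.1, 49.7 and 49.6 CPM per kilobase in PDGF replicates 1, 2 and 3 and 40.6, 47.3 and 45.8 in the PDGF-free replicates. The groups overlapped, with means of 46.8 ± 4.97 and 44.6 ± 3.54 (SD, n = 3 each), the library of batch 1 was the lowest of each group, and the PDGF library was the higher in 3 of 3 same-numbered pairs.

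TCF7 made up 40.3%, 42.0% and 39.8% of this sum in PDGF replicates 1, 2 and 3 and 23.4%, 22.3% and 22.1% in the PDGF-free replicates. Its share was thus higher in each PDGF library than in any PDGF-free library, by 18.1 percentage points on average. The difference was 16.9 points in batch 1 and 18.7 in batch 2, and between 17.5 and 18.6 points with 1 library left out. The share of TCF7L1 was 47.0 ± 2.58% without and 38.9 ± 2.25% with PDGF, and that of TCF7L2 18.1 ± 1.96% and 11.0 ± 1.38%, both without overlap between the groups (SD, n = 3 each). That of LEF1 was 12.3 ± 2.71% and 9.32 ± 1.94%, with overlapping libraries (SD, n = 3 each). Shares of a sum are tied to each other, and since these genes were chosen with earlier results known the shares are given without a test. In reads, the ratio of TCF7 to TCF7L2 was 2.62, 3.40 and 2.56 in the PDGF replicates and 1.10, 0.845 and 0.931 in the PDGF-free replicates. A ratio within a library does not depend on the normalization between libraries.

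**Figure D2:**
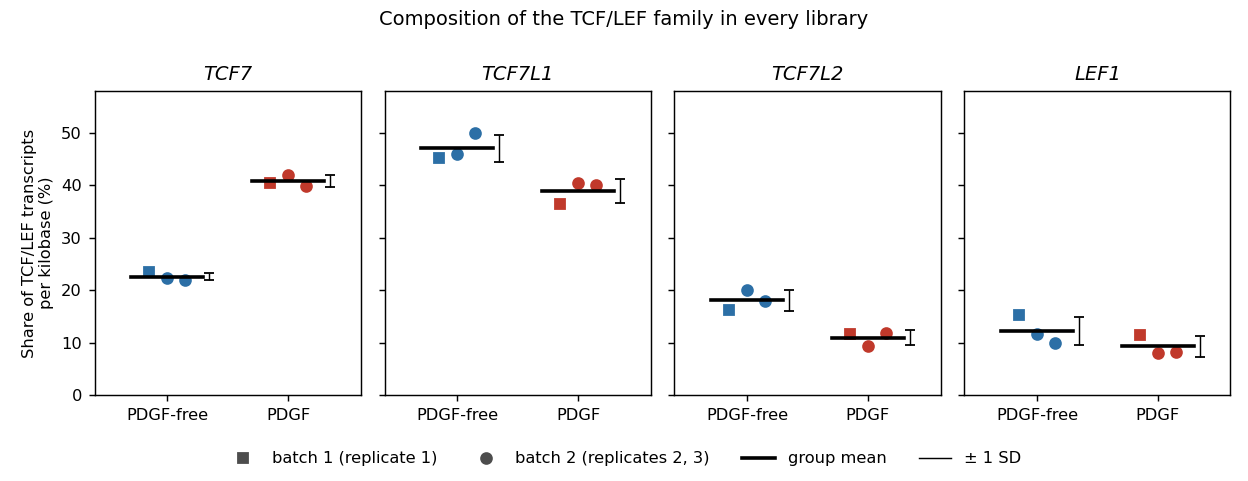
Share of each factor in the summed TCF/LEF transcripts of a library, in percent of CPM per kilobase of exon (vertical axis), for PDGF-free (blue) and PDGF (red) cultures. Squares are batch 1 and circles batch 2, with group means and ± 1 SD over 3 libraries. The TCF7 share is 22.1% to 23.4% without PDGF and 39.8% to 42.0% with it, and those of TCF7L1 and TCF7L2 are lower with PDGF without overlap.

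CTNNB1 encodes beta-catenin, which also links cadherins to the cytoskeleton, and maps to chr2:97167418-97208446 on the plus strand of Mmul_10. It stood at 418, 399 and 413 CPM in PDGF replicates 1, 2 and 3 and at 386, 371 and 373 CPM in the PDGF-free replicates. The groups did not overlap, as was the case for 18.2% of tested genes in this direction. The difference was small, at 410 ± 9.97 against 376 ± 8.55 CPM (SD, n = 3 each), or 0.12 on the log2 scale (SE 0.11, edgeR adjusted p = 0.473). With the replicate block the same log2 fold change of 0.12 passed the threshold (SE 0.04, edgeR adjusted p = 0.0152). With the correction for GC content and length added to the block it was 0.07 (edgeR adjusted p = 0.137).

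Around beta-catenin, the genes of the dishevelled proteins and of the destruction complex that marks beta-catenin for breakdown were examined as a list. Of 17 tested, 0 were called by edgeR, by DESeq2 or by limma-voom, beside 18.3%, 20.6% and 18% of all tested genes. An unadjusted edgeR p under 0.05 was found for 2, beside 3838 of all 11539 tested genes. The list's median log2 fold change was 0.18. With the replicate block 7 were called higher and 1 lower, beside 31.1% and 29% of all tested genes. GSK3A and PPP2CA of this list shared all their counts with a neighbouring gene. Among 7 tested partners of catenins at the membrane, edgeR called 3 lower with PDGF and 0 higher, 42.9% beside 18.3% of all tested genes. With the replicate block 3 were lower and 3 higher, beside 29% and 31.1% of all tested genes. The list's median log2 fold change was 0.07. Lower without the block were CDH1 (log2 fold change -2.84, edgeR adjusted p = 0.0224) and CDH11 (-2.08, 1.9e-04), which encode cadherins, and JUP (-1.69, 0.00383), which encodes plakoglobin, a close relative of beta-catenin. CDH11 fell from 126 ± 12.4 to 29.9 ± 4.03 CPM (SD, n = 3 each). CDH1 was near the detection limit in both groups, with 10 counts over the PDGF libraries and 59 over the PDGF-free libraries, and lost its call without PDGF replicate 1 or without PDGF-free replicate 2 or 3.

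WLS, also known as Wntless, carries newly made Wnt proteins from the Golgi to the cell surface. It maps to chr1:156188013-156323672 on the plus strand of Mmul_10. It was read at 461, 479 and 455 CPM in PDGF replicates 1, 2 and 3 and at 353, 352 and 366 CPM in the PDGF-free replicates. The spread within each group was narrow and the groups did not overlap, as for 18.2% of tested genes in this direction. The mean was 465 ± 12.2 against 357 ± 7.51 CPM (SD, n = 3 each), 1.30-fold higher with PDGF (log2 fold change 0.38, SE 0.11, edgeR adjusted p = 0.0478). The log2 difference was 0.38 in both batches. The call was lost with any 1 of the 6 libraries left out (edgeR adjusted p from 0.0636 to 0.163), while the log2 fold change stayed between 0.36 and 0.40, and it held with the replicate block (edgeR adjusted p = 1.4e-07).

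Per kilobase of exon, WLS was the most abundant of the 6 genes in both groups, at 137 ± 3.61 CPM per kilobase with PDGF and 106 ± 2.22 without, followed by CTNNB1 at 105 ± 2.56 and 96.8 ± 2.20 (SD, n = 3 each). WLS and CTNNB1 did not overlap in either group, and both stood far above the TCF factors. WNT2B was last, at 0.233 ± 0.108 CPM per kilobase with PDGF and 0.0965 ± 0.050 without. Of 7 tested genes for ligand secretion and release, edgeR called WLS alone, 14.3% beside 18.3% of all tested genes. With the replicate block 3 were higher, beside 31.1% of all tested genes. VPS35 of this list shared all its counts with MYLK3. PORCN, which encodes the enzyme that attaches the lipid on Wnt proteins, had a log2 difference of -0.19 (edgeR adjusted p = 0.693), and SDC1, which encodes the cell surface proteoglycan syndecan, by 0.44 (edgeR adjusted p = 0.087).

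**Figure D3:**
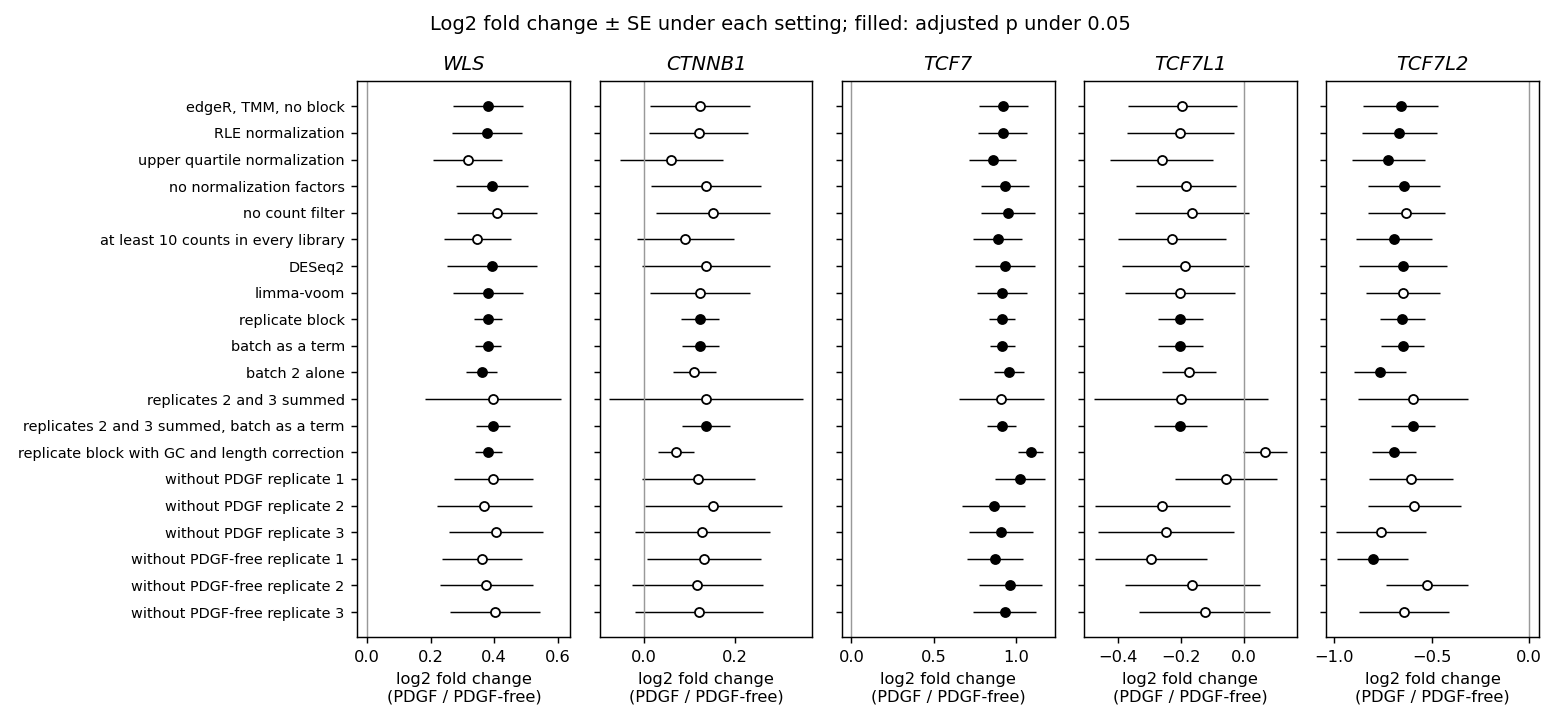
Log2 fold change ± SE (horizontal axis, PDGF over PDGF-free, a separate scale for each gene) of the 5 tested genes under every setting tried (rows). Filled points have an adjusted p under 0.05 and the vertical line marks 0. TCF7 stays between 0.86 and 1.09 and is open in 1 row, WLS and TCF7L2 keep their direction and change side of the threshold, and TCF7L1 crosses 0 in 1 row.

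WNT2B, a ligand able to act through the canonical branch, was the ligand among the chosen genes with values. It maps to chr1:111690925-111704088 on the minus strand of Mmul_10. It had 4, 9 and 10 counts in PDGF replicates 1, 2 and 3 and 4, 3 and 1 in the PDGF-free replicates, too few to pass the count filter. In batch 1 both libraries had 4 counts, and the higher counts with PDGF were those of batch 2. Over the group totals of 23 and 8 counts, the ratio of PDGF to PDGF-free was 2.31 with an exact (Clopper-Pearson) 95% interval of 0.996 to 5.96, which covers counting error only. A difference was therefore not detectable at this depth, and without a count filter edgeR gave WNT2B an adjusted p = 0.349.

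To place WNT2B among its relatives, all WNT ligand genes analysed were read. These were 11 of 19, and 4 passed the count filter, of which edgeR called 25% beside 18.3% of all tested genes. DESeq2 and the blocked edgeR fit called 2, beside 20.6% and 60.1% of all tested genes. WNT5B, a ligand that mostly signals outside the canonical branch, was the one that edgeR called. It stood at 29.9, 53.4 and 56.9 CPM in PDGF replicates 1, 2 and 3 and at 4.52, 10.7 and 7.05 CPM in the PDGF-free replicates. All libraries with PDGF were above all without, as for 18.2% of tested genes. In each group the lowest was that of batch 1. The level was 6.31-fold higher with PDGF (log2 fold change 2.66, SE 0.36, edgeR adjusted p = 0.0023), with log2 differences of 2.72 in batch 1 and 2.66 in batch 2. Its call held under all 19 alternatives tried, with a log2 fold change of 2.38 to 3.02.

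WNT9A stood at 6.41, 6.18 and 8.11 CPM with PDGF and 2.46, 4.12 and 4.51 CPM without. Its groups did not overlap, as for 18.2% of tested genes in this direction. Its log2 fold change of 0.91 did not pass the test (SE 0.29, edgeR adjusted p = 0.0644). WNT9A passed it with the replicate block (adjusted p = 0.003) and in DESeq2 (adjusted p = 0.0468). WNT7B (log2 fold change 0.67, edgeR adjusted p = 0.369) and WNT3 (-0.37, 0.66) overlapped between groups. WNT1, WNT7A and WNT9B had 0 counts in every library, and WNT8A, WNT10B and WNT16 had at most 8 counts over all 6. Summed over the 11 ligands, the level was 11.9, 20.4 and 21.7 CPM per kilobase in the PDGF replicates and 2.59, 6.14 and 4.55 in the PDGF-free replicates. WNT5B made up 82.8% to 86.3% of that sum with PDGF and 51.1% to 57.5% without.

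**Figure D4:**
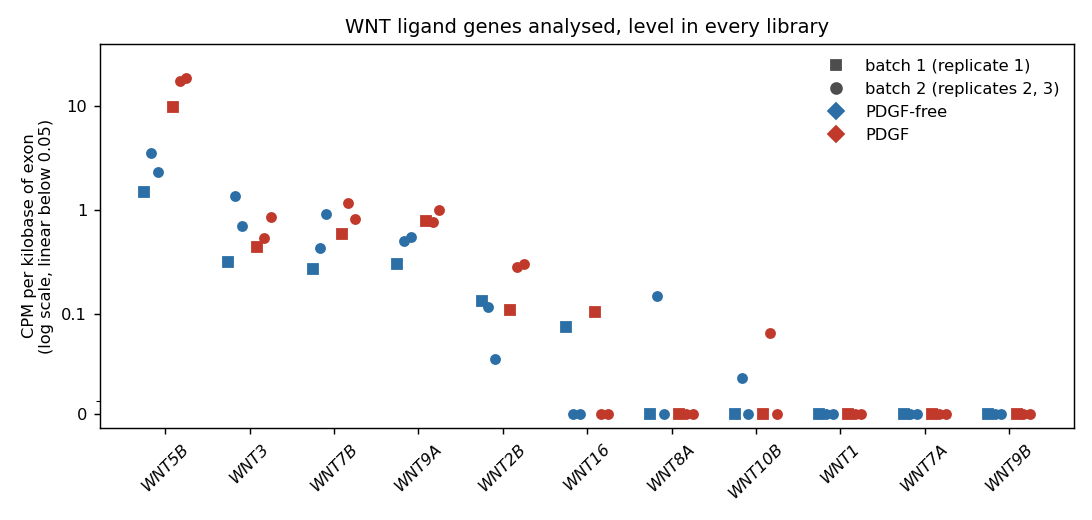
Level of the 11 WNT ligand genes analysed in every library, in CPM per kilobase of exon (vertical axis, logarithmic and linear below 0.05), for PDGF-free (blue) and PDGF (red) cultures, with squares for batch 1 and circles for batch 2. WNT5B lies at 9.85 to 18.8 with PDGF and 1.49 to 3.53 without, and WNT2B at 0.305 or below in every library.

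The lists of the remaining pathway steps were read beside these genes. Over all Wnt lists and without the chosen genes, 94 genes were tested, of which 10 were higher, 11 were lower and 73 did not pass the test, a called share of 22.3% beside 18.3% of all tested genes. Their median log2 fold change was 0.08. With the replicate block 35 were called higher and 25 lower, beside 31.1% and 29% of all tested genes.

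Among 17 tested nuclear co-factors, which activate or restrain TCF factors, 2 were higher and 2 were lower with PDGF. This called share was 23.5% beside 18.3% of all tested genes, and the list's median log2 fold change was 0.22. With the replicate block 8 were higher and 4 lower, beside 31.1% and 29% of all tested genes. Higher without the block were EP300 (log2 fold change 0.57, edgeR adjusted p = 0.0342), an acetyltransferase that binds beta-catenin, and TBL1X (0.84, 0.0456). Both lost the call when PDGF replicate 2 or 3 or PDGF-free replicate 1 or 2 was left out, and EP300 also without PDGF-free replicate 3. Lower without the block were TLE2 and TLE5, each with a log2 difference of -1.20 (edgeR adjusted p = 0.00506). TLE2 encodes a co-repressor of TCF factors and TLE5 a short relative of it. Their counts were identical in all 6 libraries, so these are a single measurement whose gene is uncertain, at 26.1 ± 4.03 against 60.1 ± 10.8 CPM (SD, n = 3 each). The counts and called shares of this list and of all Wnt lists take it as 2 genes. CTNNBIP1 of this list shared all its counts with CLSTN1.

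Of 10 tested beta-catenin target genes, 3 were higher (CCND1, TCF7 and MYC), 1 was lower (DKK1) and 6 did not pass the test, with a median log2 fold change of 0.45. The called share was 40% beside 18.3% of all tested genes. With the replicate block 6 were higher and 2 lower, beside 31.1% and 29% of all tested genes. The MYC call (log2 fold change 0.51, edgeR adjusted p = 0.0474) was lost when any library but PDGF replicate 1 was left out, at adjusted p up to 0.159. LEF1, NKD1 and ZNRF3, targets that restrain or mediate the pathway itself, had log2 differences of -0.33, 0.58 and 0.13 (edgeR adjusted p = 0.216, 0.117 and 0.753). CCND1, which encodes cyclin D1, a gene that many other signals also control, rose by 1.63 in log2 terms (edgeR adjusted p = 2.7e-04). Of the 2 tested genes for R-spondins and receptor turnover, 0 were called by edgeR, DESeq2 or limma-voom, beside 18.3%, 20.6% and 18% of all tested genes. An unadjusted edgeR p under 0.05 was found for 0, beside 3838 of all 11539 tested genes. The blocked edgeR fit called 1 lower, beside 29% of all tested genes.

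Of 15 tested frizzled and co-receptor genes, 2 were higher (LGR6 and LRP6) and 2 were lower (ROR1 and FZD4). This called share was 26.7% beside 18.3% of all tested genes, and the median log2 fold change was -0.09. With the replicate block 2 were higher and 6 lower, beside 31.1% and 29% of all tested genes. LGR6, a receptor for R-spondins, had 103 counts with PDGF and 1 without, and LRP6, a co-receptor of the canonical branch, rose by 0.64 on the log2 scale and lost its edgeR call with any library left out (adjusted p from 0.0547 to 0.136). ROR1 encodes a receptor for ligands of the WNT5 type and had 28 counts with PDGF and 142 without (log2 fold change -2.63, edgeR adjusted p = 0.0153), a call lost without PDGF-free replicate 3. Of 7 tested secreted antagonists, FRZB was higher and 4 were lower, a called share of 71.4% beside 18.3% of all tested genes. Their median was -0.98. The largest falls were in SFRP4 (20 counts with PDGF and 501 without) and WIF1 (3 and 58), the latter near the detection limit in both groups. SFRP2, the most abundant of the 4, fell from 1918 ± 194 to 723 ± 96.9 CPM (SD, n = 3 each) (log2 fold change -1.41, edgeR adjusted p = 6.3e-04). With the replicate block 2 were higher and 4 lower, beside 31.1% and 29% of all tested genes.

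**Figure D5:**
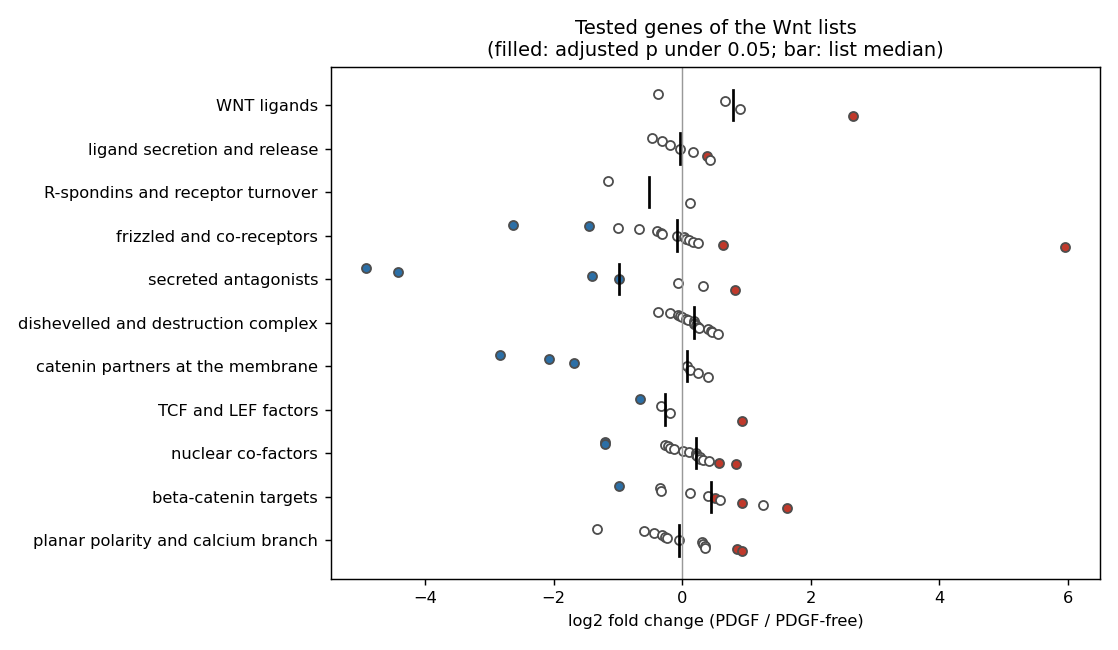
Log2 fold change (horizontal axis, PDGF over PDGF-free) of every tested gene in each Wnt list, with filled points for genes past an adjusted p of 0.05 (red higher, blue lower) and a bar at the list median. Calls fall in both directions in the TCF and LEF, nuclear co-factor, receptor and antagonist lists, none falls in the dishevelled and destruction complex list, and a gene in several lists is drawn in each.

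Markers of other cell types differed between the groups beside these genes. The counts of lower markers below stand beside 10.7% of all tested genes that edgeR called lower with PDGF. Spermatid markers summed to 48.1 to 75.9 CPM with PDGF and 415 to 681 CPM without, and both tested members were lower. TNP1 and TNP2 made up nearly all of these sums. General germ cell markers summed to 0.301 to 1.28 CPM and 4.80 to 8.43 CPM, with 2 of 3 tested lower. Peritubular myoid markers summed to 369 to 478 CPM and 696 to 908 CPM, with 2 of 5 tested lower. Epithelial markers summed to 14.5 to 22.1 CPM and 39.0 to 53.2 CPM, with 2 of 3 tested lower. Markers of differentiating spermatogonia summed to 1.42 to 2.85 CPM and 4.51 to 6.08 CPM, with 1 of 2 tested lower. Sums over fibroblast and stromal markers overlapped, but 2 of 8 were lower and their median log2 fold change was -0.48. The collagen genes differed from each other. COL3A1 stood at 2757 to 2931 CPM with PDGF and 5809 to 6258 CPM without. COL1A1 (4088 to 8241 CPM with PDGF and 2723 to 5422 without) and COL1A2 (5193 to 6539 and 4955 to 5572) overlapped between the groups. Leydig cell sums overlapped as well (266 to 333 CPM and 232 to 269 CPM), with 1 of 4 tested lower. Sums over undifferentiated spermatogonial markers overlapped, with UCHL1 higher and FGFR3 lower. Sums over Sertoli, endothelial and macrophage markers overlapped too, and of their 10 tested genes PECAM1 had an unadjusted edgeR p under 0.05 (adjusted p = 0.134). The part of these marker differences in the levels of TCF7, TCF7L2, WLS and WNT5B was not tested.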

How the data were processed

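The authors deposited estimated counts per gene without normalization, which they made from aligned reads. Because 34 values (13 genes) are fractional, all were rounded. The submitters' processing notes name fastp, HISAT2 2.1.0, SAMtools and featureCounts 2.0.1 and the builds Mmul_10 and Mmul_8.0.1, with no role or strand setting given. Of 2686 LOC identifiers in the table, 2657 matched a chromosomal gene of RefSeq release 103 on Mmul_10, which supplied exon lengths (union of exons), loci and upstream windows. Without a known strand setting, reads of a gene and an antisense partner cannot be told apart, and WLS, TCF7L1 and TCF7L2 overlap such RefSeq loci.

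Groups, replicates and batches came from the labels, and 0 columns were left without a sample. TMM, filterByExpr and the quasi-likelihood test of edgeR 4.0.16 (R 4.3.3) without a block were used over all 17795 genes, of which 11539 passed the filter, with Benjamini-Hochberg adjusted p under 0.05 as the threshold. SE is the absolute log2 fold change over the square root of F. Within-batch differences used counts plus 0.5. Same-numbered libraries deviated together from their group means (r = 0.73, 0.35 and 0.37 over genes), so the numbers were treated as pairing them. Crossing numbers 2 and 3, which are of one batch, gave r = 0.36 and 0.39. These r values therefore reflect the batches and cannot tell which libraries of batch 2 belong together.

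The comparison was repeated with DESeq2 1.42.0, limma-voom (limma 3.58.1), RLE or upper quartile or unit factors, no or a stricter count filter, the block, batch terms, batch 2 alone, replicates 2 and 3 summed, a GC and length correction, and each library left out. On simulated counts of this comparison (11539 genes, 200 changed) edgeR recovered 95% of genes with a log2 fold change of 2 and 44% of those of 1, with 5 false calls. The simulated libraries were drawn independently and without batches, so these rates may not hold for the libraries here. The 10 genes and the lists were chosen with earlier results of these data known. Named by rule were the chosen genes and LEF1, up to 2 called genes in each direction per list and, for each called member, the 2 genes with the nearest profile. PORCN, SDC1, NKD1, ZNRF3, SFRP2, the remaining WNT ligands and JUP were named after their values were seen. Figures used Python 3.11.15 and matplotlib 3.10.9.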

Additional observations from a re-analysis of the deposited data

How the results depend on the processing

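Of the 5 tested members, TCF7, WLS, TCF7L2 and CTNNB1 kept their direction under every alternative, and TCF7L1 turned sign, from -0.20 to 0.067, with the replicate block and the correction for GC content and length together. WLS fell past the threshold with upper quartile factors (log2 fold change 0.32), with no count filter (0.41), with at least 10 counts in every library (0.35) and with replicates 2 and 3 summed (0.40). TCF7L2 did so with no count filter (-0.63), limma-voom (-0.65) and the summed replicates (-0.60), and TCF7 with the summed replicates (0.91). CTNNB1 and TCF7L1 passed it with the replicate block (0.12 and -0.20), with batch as a term (0.12 and -0.20) and with replicates 2 and 3 summed and batch as a term (0.14 and -0.20).

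Members called numbered 3, and became 5 with the replicate block, with batch as a term and with summed replicates and batch, 1 with no count filter, and 0 in edgeR with summed replicates, where 1 had an unadjusted p under 0.05 and DESeq2 on all libraries called 3. Genes called numbered 2108, and 6934 with the replicate block, 6991 with batch as a term, 6126 in batch 2 alone, 693 with summed replicates, 7089 with summed replicates and batch, and 6604 with the block and the GC and length correction. Upper quartile factors moved the split of calls from 878 higher and 1230 lower to 680 and 1414, and the block with the GC and length correction to 4064 and 2540. In the pathway lists 21 non-member calls became 60, 60, 52, 11, 62 and 60 in that order of settings, and 13 with at least 10 counts in every library. The difference in TCF7 share was 16.9 points within batch 1 against 18.1 overall. The causes of these changes were not tested.

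With 1 library left out, genes called ranged from 1168 to 3010 (highest without PDGF-free replicate 1, lowest without PDGF replicate 2), members called from 1 to 2 and list calls from 15 to 22. The log2 fold change ranged from 0.36 to 0.40 for WLS, 0.12 to 0.15 for CTNNB1, 0.86 to 1.03 for TCF7, -0.30 to -0.06 for TCF7L1 and -0.80 to -0.52 for TCF7L2, and the TCF7 share from 17.5 to 18.6 points. WNT3, at -0.37 with all libraries, ranged from -0.78 without PDGF-free replicate 1 to 0.28, a changed sign, without PDGF-free replicate 2. Over the other named genes, 498 values kept direction and side of the threshold, 55 fell past it and 30 passed it. Counts under about 10 per library, as for WNT2B, limit what can be seen.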

Other observations

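Tested genes other than the chosen genes were compared with the 3 called genes by the Euclidean distance between profiles over the 6 libraries (log2 CPM less each gene's own mean). This is a description over 6 points that share library and batch. Nearest to TCF7 were ANKH, which encodes a pyrophosphate transporter (distance 0.103, log2 fold change 0.91), and SPTBN1, which encodes a spectrin (0.124, 0.90). Nearest to WLS were UBE3C (0.0582) and MTO1 (0.0835), each with a log2 fold change of 0.38, and nearest to TCF7L2 were ADCK1 (0.161, log2 fold change -0.62) and ACTRT3 (0.215, -0.83).

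In the planar polarity and calcium branch of Wnt signaling, which acts without beta-catenin, 13 genes were tested. With PDGF 2 were higher and 11 did not pass edgeR's test, a called share of 15.4% beside 18.3% of all tested genes. VANGL1, a membrane protein of planar polarity, rose from 4.64 ± 0.706 to 8.89 ± 1.46 CPM (SD, n = 3 each) (log2 fold change 0.93, edgeR adjusted p = 0.0285), a call lost without replicate 2 or 3 of either group. PRICKLE1, a cytoplasmic partner of VANGL proteins, rose from 76.2 ± 3.35 to 137 ± 9.30 CPM (SD, n = 3 each) (log2 fold change 0.85, edgeR adjusted p = 0.00378). The median of this list was -0.05. With the replicate block 5 of its genes were called higher and 5 lower, beside 31.1% and 29% of all tested genes.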
